A study of Mus musculus with 46 samples.

Results

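This account covers the livers of male mice that lacked Plvap in hepatic stellate cells and of their littermate controls after 6 weeks of high-fat diet. The livers were chosen by their labels, which give high-fat diet and knockout or littermate control, and there are 10 of them (5 of each) among 46 in the series. Normal drinking water was given with the diet, the mice fasted for 12 h before they were killed, and the livers were snap frozen. The strain is labelled C57BL/6JBomTac. One genotype label, which names the Plvap allele Plvaptm1.1Salm and the Cre transgene Tg(Lrat-cre)1Rshw on a background written B6.126(Cg), is given to both groups, so the labels do not say whether the controls carried the Cre transgene. Age is not given. The other livers of this line are used below for comparison. Fasted mice on western diet with fructose in the water gave 5 control and 4 knockout livers, and fasted mice on chow 6 and 5. Mice on chow refed for 2 h after a 10 h fast gave 4 and 4. The western diet livers were also part of the fit behind the high-fat results, and so entered its gene filter, scaling factors and estimate of spread. The labels number the livers of a group as replicates and do not say how litters or cages were shared.

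Plvap encodes plasmalemma vesicle associated protein, which forms the diaphragms that span caveolae and the fenestrae of endothelial cells. Hepatic stellate cells are the vitamin A storing pericytes that lie between sinusoidal endothelium and hepatocytes, and Lrat, whose promoter drives the Cre, encodes the enzyme that esterifies retinol for this storage. Most RNA of a whole liver comes from hepatocytes, which make the proteins of blood plasma and handle fat arriving from the gut and from adipose tissue. In such bulk samples, fewer cells of one type and less RNA per cell cannot be told apart.

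The question was what changes in the liver when stellate cells lack Plvap under a fat-rich diet. Of 13533 genes tested, 27 were higher and 11 lower in the knockout at an adjusted p under 0.05 (edgeR quasi-likelihood test, Benjamini-Hochberg), which is 0.281% of the genes tested (0.2% higher, 0.0813% lower). These are referred to as called. Albumin was the most abundant gene that rose, to 219% of control, with the growth factor binding protein Igfbp2 (216%) and the dehydrogenase Rdh16f2 (225%). Plvap itself fell, together with 3 chaperone genes, the inducible Hspa1a, its partner Bag3 and the co-chaperone Dnajb4. Most changes were small, with 24 of the 38 called genes under 2-fold. The libraries of the 2 groups did not overlap for 37 of the 38. Over all genes tested, 257 (1.9%) lay wholly higher and 203 (1.5%) wholly lower in the knockout. A p under 0.05 before adjustment was reached by 1873 genes. The median log2 fold change of all genes was 0.01, and 51.5% of them had a positive sign.

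**Figure D1:**
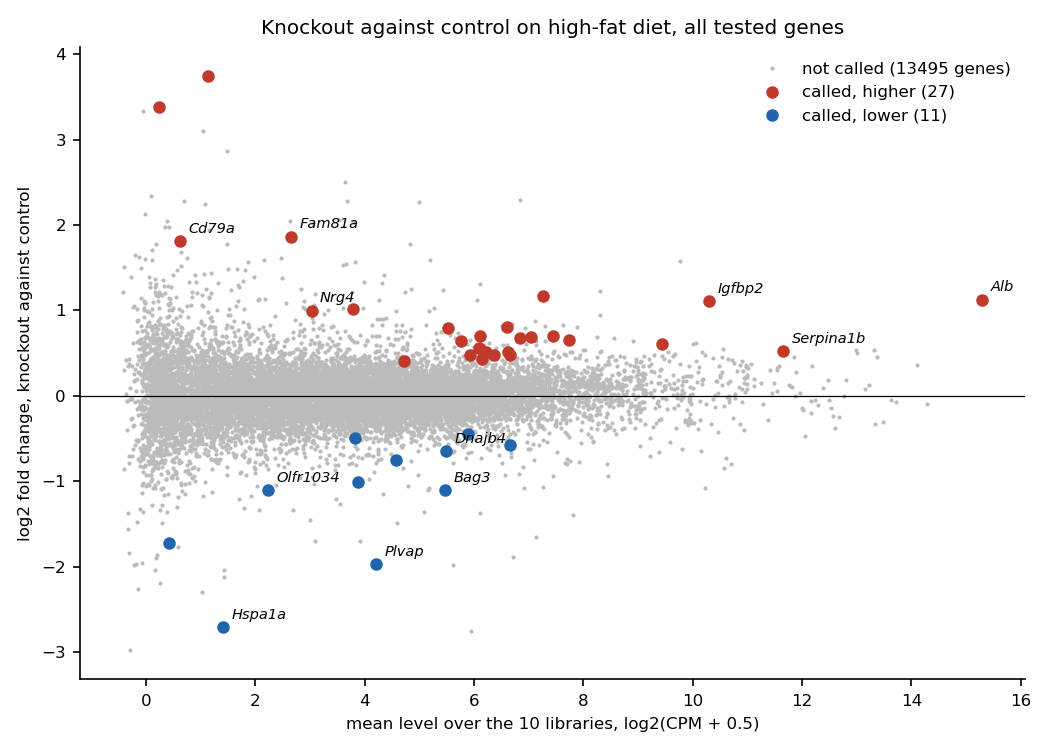
Each point is 1 of 13533 genes, with its mean level over the 10 libraries as log2(CPM + 0.5) on the x axis and its log2 fold change, knockout against control, on the y axis. The 27 called genes that rose are red and the 11 that fell blue. Alb lies at the far right, at a log2 fold change of 1.13, and Hspa1a and Plvap are the lowest called points at -2.71 and -1.97.

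Total counts ran from 6656342 (control D) to 21570506 (control B) per library, and mitochondrial genes took 4.64% to 5.94% of the counts. The count of called genes rested on single livers. Leaving out 1 control at a time gave 61 (A), 6 (B), 15 (C), 8 (D) and 20 (E) called genes. Leaving out 1 knockout gave 44 (A), 4 (B), 34 (C), 38 (D) and 21 (E). Plvap, Alb and Rdh16f2 were the 3 genes called in all 10 of these fits. Of the other called genes 13 passed in 5 to 9 of them and 22 in 1 to 4, and each kept its direction wherever it was tested. Below, CPM are read counts scaled to a common library size with TMM factors, given as mean ± SD over 5 livers, and a log2 fold change carries its SE.

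Plvap (ENSMUSG00000034845, GRCm39 chromosome 8, 71950409 to 71964396) was read first because it checks the labels. The controls A to E stood at 24.3, 29.3, 32.7, 31.6 and 25.7 CPM. The knockouts stood at 5.01, 6.65, 8.68, 4.95 and 11.1 CPM. All 5 knockouts lay below the lowest control, and knockout E kept the most Plvap. The log2 fold change was -1.97 ± 0.20 (adjusted p 2.72e-05), and the exact two-sided permutation p of 0.00794 is the smallest that 5 against 5 can give. The fall held in every fit with a library left out. Lrat was at 11.8 ± 1.36 CPM in controls and 12.1 ± 1.06 in knockouts (adjusted p 0.916).

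Plvap was the 1 called member among 11 tested genes of caveolae and their coat. Cav1, which builds the caveolar coat, was at 4.41 ± 1.01 CPM in controls and 2.44 ± 0.871 in knockouts, with a log2 fold change of -0.83 ± 0.31 that did not pass (adjusted p 0.217). The median of the 11 genes was 0.08. Of 114 other genes tested within 5 Mb of Plvap none was called, and their median log2 fold change was 0.09. The overlapping gene Gtpbp3 on the other strand had an adjusted p of 0.396.

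**Figure D2:**
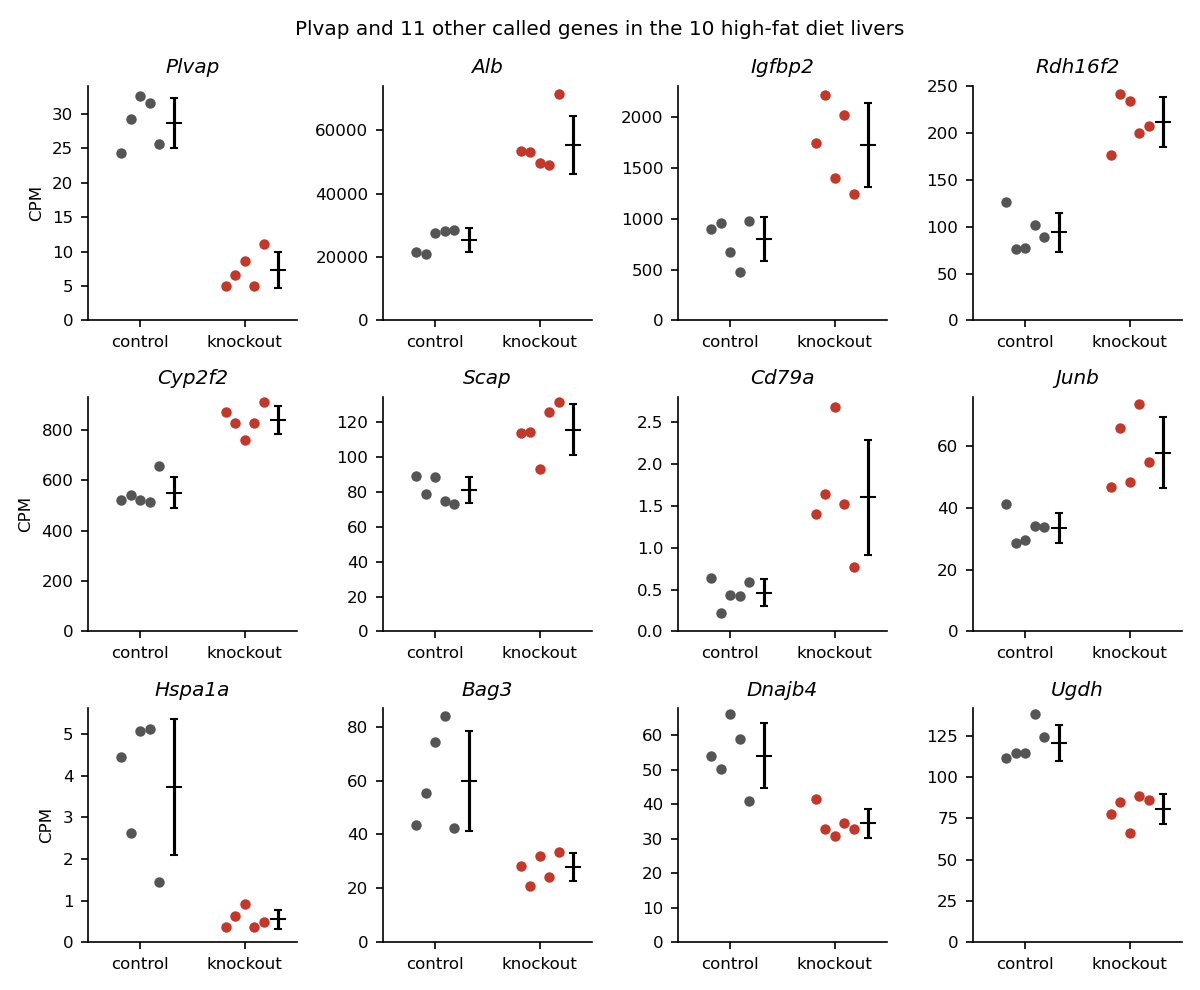
CPM of Plvap and 11 other called genes in each of the 10 livers, with control livers in grey and knockout livers in red, replicates A to E from left to right, and the mean with its SD as a black bar. The groups are apart in every panel except that of Dnajb4, where control E (40.9 CPM) lies below knockout A (41.5 CPM).

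Most genes for plasma proteins had higher values in the knockout livers. Of 41 tested genes of secreted plasma proteins 2 were called, both higher (against 0.2% of all genes). The median log2 fold change of the list was 0.36 against 0.01 over all genes. The signs were positive for 37 of the 41, and 13 (against 1.9% of all genes) had every knockout liver above every control. Albumin (Alb, ENSMUSG00000029368, chromosome 5, 90608756 to 90624461), the main carrier of fatty acids and hormones in plasma, was at 21528, 20909, 27718, 28155 and 28476 CPM in controls A to E. It was at 53593, 53177, 49603, 49228 and 71500.2 CPM in knockouts A to E. Even the lowest knockout was far above the highest control, and knockout E stood out at the top. The log2 fold change was 1.13 ± 0.17 (adjusted p 0.00792). Alb took 2.15% to 3.11% of the raw counts of a control library and 4.78% to 7.17% of those of a knockout library. The 5 hepatocyte markers, Alb among them, summed to 36308 to 43361 CPM in controls and 66237 to 95665 in knockouts. Alb made up most of each sum and most of the difference, and was the 1 of the 5 that was called.

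Serpina1b, one of the alpha-1-antitrypsin protease inhibitors, rose from 2656 ± 156 to 3818 ± 272 CPM (0.52 ± 0.10, adjusted p 0.0341). Its neighbours Serpina1a (0.55 ± 0.12) and Serpina1d (0.46 ± 0.11), named after their values were seen, had adjusted p of 0.05004 and 0.0672 and did not pass. These copies are close in sequence and Serpina1b overlaps Serpina1d on the same strand, so the authors' counting could split reads among them. The hepatocyte growth factor activator Hgfac, a plasma protease, rose from 133 ± 23.8 to 216 ± 46 CPM (0.70 ± 0.15, adjusted p 0.0463), with control values from 109 to 169 and knockout values from 182 to 295. Gpld1, a secreted phospholipase that releases anchored surface proteins, rose from 88 ± 9.75 to 141 ± 22.5 CPM (0.68 ± 0.13, adjusted p 0.0225).

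Other plasma proteins, named after their values were seen, lay in the same direction without passing. The fetuin Ahsg was at 6644 ± 682 CPM in controls and 9661 ± 719.7 in knockouts (adjusted p 0.0588). The histidine-rich glycoprotein Hrg was at 677 ± 71.9 and 953 ± 105 CPM (adjusted p 0.0672), the apolipoprotein Apoa1 at 8919 ± 516 and 12200.5 ± 2282 (adjusted p 0.145). Transthyretin (Ttr) was at 3136 ± 474 and 4304 ± 1044 CPM, with overlapping groups (adjusted p 0.192). Of 32 acute phase genes 0 were called, with a median of 0.00 and as many positive as negative signs (16 each). Saa3, an acute phase apolipoprotein, was between 11.8 and 253 CPM in controls and between 5.17 and 40.6 in knockouts.

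Genes of the periportal zone, where blood enters the lobule and ammonia and amino acids are cleared, mostly had higher values as well. Of 28 tested, 3 were called, all higher (Alb among them), against 0.2% over all genes. The median was 0.39 and 26 had a positive sign. The list's mean deviation from the control mean on the log2 scale was 0.20 (A) to 0.85 (B) in knockouts and -0.20 (D) to 0.23 (A) in controls, so the groups overlapped. Cyp2f2, a monooxygenase that marks periportal hepatocytes, was at 524, 541, 524, 513 and 659 CPM in controls A to E and 872, 829, 761, 827 and 911 in knockouts A to E. Each knockout was above the highest control. The log2 fold change was 0.60 ± 0.11 (adjusted p 0.0225). Uroc1, urocanate hydratase of histidine breakdown, rose from 166 ± 25.5 to 261 ± 45.1 CPM (0.65 ± 0.14, adjusted p 0.0432), with values from 132 to 204 in controls and from 221 to 332 in knockouts.

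Other periportal genes had higher means in the knockout without passing. The serine dehydratase Sds, named after its values were seen, lay between 34.1 and 129.7 CPM in controls and between 81.5 and 287 in knockouts (adjusted p 0.397). The liver glutaminase Gls2, named in the same way, was at 232 ± 43.9 and 375 ± 99.4 CPM (adjusted p 0.079). Pericentral genes, those around the central vein, had 0 of 29 called and a median of 0.11. Tbx3, a WNT-dependent transcription factor and 1 of the 3 pericentral genes with the smallest p, was between 14.1 and 66.8 CPM in controls and between 14 and 23.8 in knockouts (adjusted p 0.212). Among 18 hepatocyte identity genes Alb alone was called (against 0.2% of all genes called higher), and the median was 0.09.

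Igfbp2, a circulating binding protein for insulin-like growth factors, was the most abundant called gene after Alb and Serpina1b. Its levels were 897, 962.5, 673, 475 and 978 CPM in controls A to E and 1742, 2217, 1397, 2021 and 1242 CPM in knockouts A to E. The lowest knockout was above the highest control, and the log2 fold change was 1.11 ± 0.18 (adjusted p 0.0126). Igfbp2 did not pass in the same test on the 10 high-fat libraries alone (adjusted p 0.05022). With a replicate block it did not pass either (adjusted p 0.06457, and 0.06554 in the 10 alone). It was the 1 called of 13 tested genes of the IGF system (against 0.2% of all genes called higher), with a list median of 0.03. Igfbp4 was at 1639.7 ± 121 and 2173 ± 319.7 CPM (adjusted p 0.137), and Igfbp1, which is under insulin control, ranged from 18.2 to 90.6 CPM in controls and from 15.6 to 259 in knockouts (adjusted p 0.475). Both were named after their values were seen.

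Nrg4, a secreted ligand of ERBB receptors, rose from 5.07 ± 0.713 to 10.2 ± 2.76 CPM (1.00 ± 0.20, adjusted p 0.042). Together with Igfbp2 it made 2 called genes among 26 secreted liver hormones and related factors (against 0.2% of all genes called higher). The median of the 26 was 0.06. Fgf21, the fasting hormone of the liver, lay between 3.02 and 15.1 CPM in controls and between 2.93 and 11 in knockouts (adjusted p 0.437).

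Rdh16f2, of the Rdh16 family of microsomal retinol and steroid dehydrogenases, was at 126, 76.1, 76.7, 102 and 89.4 CPM in controls A to E. In knockouts A to E it was at 176, 242, 234, 199.7 and 207 CPM. The groups did not overlap, and the log2 fold change was 1.17 ± 0.18 (adjusted p 0.0126). Its relatives on chromosome 10 were not called, with Rdh16 at -0.28 ± 0.17 (adjusted p 0.486) and Rdh9 at -0.15 ± 0.18 (adjusted p 0.775), both named after their values were seen. Reads could be split among such related genes. Of 25 tested genes of retinoid handling Rdh16f2 was the 1 called (against 0.2% of all genes called higher), and the median was 0.02.

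Of 28 stellate cell genes tested 0 were called, with a median of 0.10. The ectonucleotidase Nt5e was at 8.47 ± 1.25 CPM in controls and 5.41 ± 1.16 in knockouts (adjusted p 0.0802), the transcription factor Hand2 at 4.38 ± 0.934 and 6.16 ± 1.94 (adjusted p 0.301). Desmin (Des), chosen after its values were seen, was at 3.4 ± 0.231 and 4.05 ± 0.265 CPM (adjusted p 0.539).

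Most heat shock chaperones had lower values in the knockout. Of 31 tested genes 3 fell (against 0.0813% of all genes) and 0 rose, the median was -0.33, and 27 had a negative sign. In 5 of the 31, Hspa1a, Hspa1b, Bag3, Dnajb1 and Dnaja1, every knockout was below every control (1.5% of all genes). Heat shock factors bind runs of inverted GAA blocks in the promoters of many heat shock genes. The pairs GAANNTTC and TTCNNGAA, each its own reverse complement, were searched in RefSeq promoters (GRCm38.p6, 250 bases before to 50 after a start). At least 1 of the pairs was found for 17.0% of 27025 genes and for 14 of the 24 heat shock genes with a promoter in the table (58.3%). The list was made of heat shock genes, so this share does not depend on the knockout and says nothing about its effect. Genes with more than 1 listed start have more bases searched. The promoters of the 3 genes that fell follow, with Hspa1b beside its near copy, in lower case on the strand of the gene with the pair in capitals. The stretches of Hspa1a (chr17:34972157-34972406, minus strand) and Dnajb4 (chr3:152193846-152194095, minus strand, the second listed start) are the 250 bases before the start.
Hspa1a: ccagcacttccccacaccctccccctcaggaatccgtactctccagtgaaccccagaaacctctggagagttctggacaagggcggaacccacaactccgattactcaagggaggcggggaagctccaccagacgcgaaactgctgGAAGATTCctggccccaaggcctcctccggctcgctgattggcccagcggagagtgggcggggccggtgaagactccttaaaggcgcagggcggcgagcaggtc
Dnajb4: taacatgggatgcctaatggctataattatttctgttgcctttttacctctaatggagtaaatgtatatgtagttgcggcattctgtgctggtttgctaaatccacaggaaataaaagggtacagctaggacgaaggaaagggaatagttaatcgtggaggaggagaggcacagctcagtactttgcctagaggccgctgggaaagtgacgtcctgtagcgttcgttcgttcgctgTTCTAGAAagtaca
For Hspa1b (chr17:34959324-34959353, minus strand) and Bag3 (chr7:128523603-128523632, plus strand) 30 bases around the pair are shown. The pair of Bag3 begins at base 43 after the start.
Hspa1b: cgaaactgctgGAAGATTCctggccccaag
Bag3: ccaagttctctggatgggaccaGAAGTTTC
In Hspa1a and Hspa1b the pair begins 104 bases before the start, and 247 of the 250 bases before the start are the same in both. In Dnajb4 the pair begins 14 bases before the start. The median log2 fold change was -0.59 for the 14 genes with a pair and -0.27 for the 10 without. The 14 include the 3 called genes and both Hspa1a and its near copy Hspa1b. Signs were negative for 12 of the 14 and for 9 of the 10, and the difference was not tested. A match describes letters only, and no binding was measured.

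Hspa1a, the inducible HSP70, was at 4.45, 2.62, 5.07, 5.12 and 1.45 CPM in controls A to E and at 0.365, 0.644, 0.917, 0.381 and 0.495 CPM in knockouts A to E. Every knockout was below 1 CPM and every control above it. The log2 fold change was -2.71 ± 0.54 (adjusted p 0.0399). Most reads of this pair of genes were assigned to Hspa1b, at 77.7 ± 20.5 CPM in controls and 19.8 ± 6.14 in knockouts (25.4% of control). Its log2 fold change of -1.98 ± 0.58 did not pass (adjusted p 0.153). Since the copies are nearly identical, the split of reads between them is uncertain.

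Bag3, the nucleotide exchange factor that couples HSP70 to autophagy, was at 43.5, 55.4, 74.4, 83.7 and 42.4 CPM in controls A to E. In knockouts A to E it was at 28.2, 21, 32, 24.3 and 33.7 CPM. Controls C and D were the highest, and all knockouts were below the lowest control. The log2 fold change was -1.10 ± 0.22 (adjusted p 0.0432). Dnajb4, an HSP40 co-chaperone, fell from 54 ± 9.45 to 34.5 ± 4.12 CPM (-0.65 ± 0.14, adjusted p 0.0477), with groups that touch at control E and knockout A. Bag3 and Dnajb4 were called in 2 and Hspa1a in 3 of the 10 fits with a library left out, and Dnajb4 had an adjusted p of 0.05053 with a trend of fold change on gene length removed, an alternative chosen after the data were seen.

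Of the 28 genes of the list that were not called, 4 had a positive value, with Hsf1, the heat shock factor itself, highest at 0.16, and the chaperonin subunits Tcp1 (0.06) and Cct2 (0.04) and Hspd1 (0.01) near 0. Several others were clearly below 0 without passing, and all genes of this paragraph were named after their values were seen. Dnajb1 was at -0.78 ± 0.22 (adjusted p 0.134), Hsph1 at -0.83 ± 0.33 (0.262), Hsp90aa1 at -0.76 ± 0.32 (0.286) and the small chaperone Hspb1 at -1.15 ± 0.48 (0.298), where the value in brackets is the adjusted p. The constitutive HSP70, Hspa8, was level at 909 ± 45 and 902 ± 156 CPM (adjusted p 0.986). Its sign changed between fits. Knockout D had the smallest shift of the list, with a mean deviation from the control mean of -0.20 on the log2 scale, against -0.43 to -0.65 in the other 4 knockouts. Controls ranged from -0.19 (A) to 0.24 (D).

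**Figure D3:**
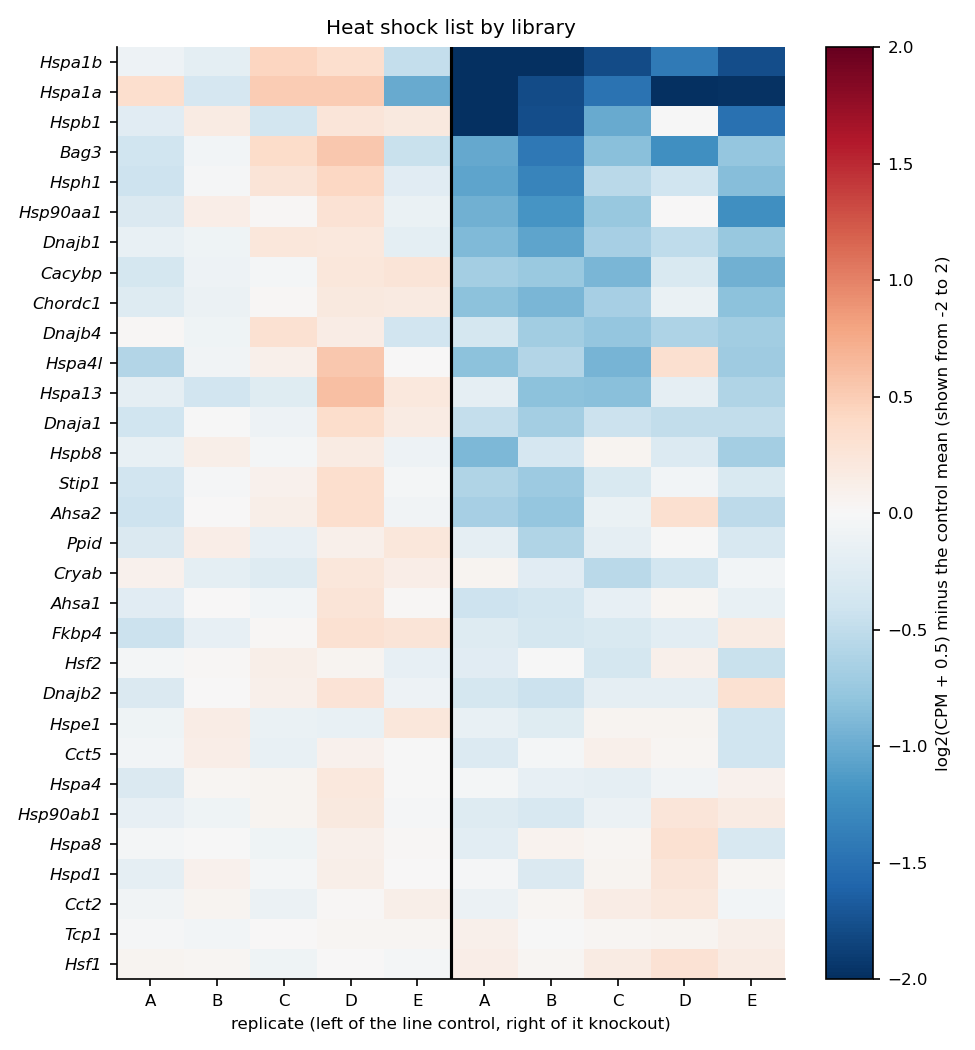
Log2(CPM + 0.5) of the 31 heat shock genes (rows) in each liver (columns), minus the mean of the 5 controls, in blue where lower and red where higher. The upper rows are blue in most knockout columns, while the chaperonins and constitutive chaperones in the lower rows, Hspa8 among them, are near white in both groups.

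Chaperones of the endoplasmic reticulum and the unfolded protein response had the lowest median of any list, -0.53 with 26 of 30 signs negative, but 0 of 30 were called and 0 lay apart between groups. The livers within a group were far apart. Hspa5, the main chaperone of this compartment, was at 1109.9 (A), 1709 (B), 1909 (C), 3497 (D) and 1597 (E) CPM in controls, and between 543 (B) and 1511 (A) in knockouts (adjusted p 0.301). Control D was the highest and control A lay within the range of the knockouts. The stress transcription factor Ddit3 was at 24.8 and 29.9 CPM in controls C and D and between 4.85 and 8.93 in the other 8 livers (adjusted p 0.114). The disulfide isomerase Pdia3 (-0.70 ± 0.24) and the co-chaperone Dnajb9 (-0.75 ± 0.26) had adjusted p of 0.19 and 0.206. Hspa5 was named after its values were seen.

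Immediate early genes, which answer signals within minutes, were on balance higher. Of 23 tested 1 rose (against 0.2% of all genes), 0 fell, and the median was 0.33. Junb, an AP-1 subunit, was at 41.3, 28.7, 29.6, 34 and 33.9 CPM in controls A to E and 46.8, 65.9, 48.3, 73.6 and 54.9 CPM in knockouts A to E. The lowest knockout was above the highest control, and the log2 fold change was 0.79 ± 0.16 (adjusted p 0.0432). Junb lies on the chromosome of Plvap, 13.8 Mb away. With a length trend removed its adjusted p was 0.05053. The antiproliferative factor Btg2 (6.94 ± 2.47 against 20.5 ± 9.39 CPM, adjusted p 0.05004) and Ier2 (18.5 ± 3.69 against 29.3 ± 4.05 CPM, adjusted p 0.0618) also had no overlap and did not pass. The zinc finger factor Egr1 was between 3.24 and 8.18 CPM in controls and between 4.94 and 42.3 in knockouts, with knockouts D and E highest (adjusted p 0.134). These 3 were named after their values were seen.

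Among genes of lipid metabolism few were called. Scap, which escorts SREBP proteins to the Golgi when sterols are low, rose from 81 ± 7.53 to 116 ± 14.6 CPM (0.51 ± 0.09, adjusted p 0.0159), with controls between 73 and 89.4 and knockouts between 93.4 and 132 CPM. It was the 1 called among 26 genes of cholesterol synthesis and its control (against 0.2% of all genes called higher). The median of these 26 was -0.08 with 12 positive signs, but replicate E went the other way in both groups. The list's mean deviation from the control mean on the log2 scale was -0.80 to -0.43 in knockouts A to D and 0.58 in knockout E. In controls it was -0.06 to 0.26 in A to D and -0.60 in E. Lpcat3, which puts polyunsaturated fatty acids into phospholipids, was at 60.4, 62.9, 58.1, 56 and 61.4 CPM in controls A to E. In knockouts A to E it was at 77.7, 76.4, 77.8, 86.7 and 85.7 CPM. Values within each group were close together, and the log2 fold change was 0.43 ± 0.07 (adjusted p 0.0126). Emg1, which overlaps Lpcat3 on the other strand, was at -0.06 (adjusted p 0.821).

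No gene passed among 26 of lipogenesis, 30 fasting targets of PPARA, 33 of fatty acid oxidation or 35 of lipid uptake and droplets. Their medians were 0.18, -0.06, 0.04 and -0.03. The desaturase Scd1, the lipogenic gene with the smallest p, ran from 116 (B) to 920.4 (E) CPM in controls and from 173 (D) to 3219.8 (E) in knockouts (adjusted p 0.275). Aldh3a2, a fatty aldehyde dehydrogenase and PPARA target, was at 438 ± 88.4 CPM in controls and 253 ± 97.1 in knockouts (adjusted p 0.19). The omega-hydroxylase Cyp4a14 was at 1951 ± 951 and 1183 ± 777 CPM (adjusted p 0.44) and the carnitine palmitoyltransferase Cpt1a at 415.2 ± 63.9 and 482 ± 80.1 (adjusted p 0.509), both named after their values were seen. The peroxisomal transporter Abcd2 had no overlap (2.39 to 9.06 CPM in controls, 9.1 to 35 in knockouts) but did not pass (adjusted p 0.265). Of the uptake and droplet genes, the fatty acid binding protein Fabp2 was at 256 ± 49.8 and 149 ± 34.3 CPM (adjusted p 0.0843), without overlap. The droplet protein Hsd17b13 was at 298 ± 20 and 407.6 ± 22.9 CPM, again without overlap (adjusted p 0.0904).

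Other metabolic genes were called singly. Papss2, which makes the sulfate donor PAPS, rose from 70.2 ± 18.3 to 123 ± 14.8 CPM (0.80 ± 0.17, adjusted p 0.0491), and did not pass with a length trend removed (0.05053). Ugdh, which makes UDP-glucuronate, fell from 120.5 ± 10.9 to 80.7 ± 9.28 CPM (-0.58 ± 0.11, adjusted p 0.0299). They were the 2 called genes among 27 of conjugation (against 0.281% of all genes), and the median of the list was 0.07. Gsto1, an omega class glutathione transferase, rose by 0.48 ± 0.10 (adjusted p 0.0351), although its highest control (76.7 CPM) and lowest knockout (77.1 CPM) almost met. Vnn3, of the vanin pantetheinases, rose from 52.2 ± 6.45 to 84.9 ± 7.04 CPM (0.70 ± 0.13, adjusted p 0.0226). The mitochondrial serine carrier Sfxn1 rose by 0.56 ± 0.12 (adjusted p 0.0473). Plbd2, a lysosomal phospholipase B-like protein, rose from 42.1 ± 3.5 to 65.7 ± 11.2 CPM (0.64 ± 0.11, adjusted p 0.0126). It overlaps Sds on the other strand.

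Ribosomal protein genes mostly had slightly higher values. Of 79 tested 3 rose (against 0.2% of all genes) and 0 fell, the median was 0.20, and 74 had a positive sign. Rps13 rose from 100.4 ± 13.1 to 163 ± 29.6 CPM (0.70 ± 0.12, adjusted p 0.0159). Rps6, the ribosomal protein phosphorylated downstream of mTOR, was at 70.7 to 89.8 CPM in controls and 111 to 124 in knockouts (0.48 ± 0.09, adjusted p 0.0159). Rpl29 rose by 0.52 ± 0.10 (adjusted p 0.0299). Ribosomal protein genes are short, and log2 fold changes fell with gene length over all genes (Spearman's rho -0.111 across genes, which are not independent). With that length trend removed the median of the 79 was 0.17 and 3 were called.

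Most genes of the list of B cells, other lymphocytes and neutrophils had higher values (23 of 30 positive). Cd79a, a chain of the B cell receptor, was at 0.636, 0.226, 0.434, 0.427 and 0.597 CPM in controls A to E and at 1.41, 1.65, 2.68, 1.52 and 0.77 CPM in knockouts A to E. The log2 fold change was 1.81 ± 0.38 (adjusted p 0.0452). It was the 1 called among the 30 tested genes (against 0.2% of all genes), which include the neutrophil genes S100a8 and S100a9 and had a median of 0.70. Cd79b (0.834 ± 0.407 against 1.97 ± 0.443 CPM) and Ighm (4.63 ± 1.2 against 8.39 ± 4.64) had adjusted p of 0.0919 and 0.261, both named after their values were seen. The 5 B cell markers together summed to between 5.97 and 9.69 CPM in controls and between 7.53 (E) and 21.8 (C) in knockouts, and knockouts B and C were the highest. The list's mean deviation on the log2 scale was 0.96 and 0.83 in knockouts B and C and 0.08 to 0.18 in the other 3. None of the 5 markers was at 0 in all 10 livers, and the part of B cell content in this result was not tested.

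Further called genes belong to no list. Olfr1033 and Olfr1034 are neighbouring olfactory receptor genes on chromosome 2 (85850977 to 85875515 and 85876205 to 85881086). Olfr1033 fell from 18.9 ± 2.66 to 9.44 ± 1.58 CPM (49.8% of control) and Olfr1034 from 5.74 ± 0.472 to 2.66 ± 0.678 CPM (46.3%), each with an adjusted p of 0.0126. Controls held 15.7 to 21.7 CPM of Olfr1033 and knockouts 7.65 to 11.2. Fam81a, a gene of little known function, was at 1.36 to 3.42 CPM in controls and 5.64 to 15.2 in knockouts (1.86 ± 0.33, adjusted p 0.0159). Usp6nl, a GTPase activating protein of endosomal traffic, fell from 29.2 ± 5.43 to 17.5 ± 3.36 CPM (-0.75 ± 0.14, adjusted p 0.0225). The histone chaperone Nasp fell by 0.50 ± 0.10 on the log2 scale (adjusted p 0.0299), from a control range of 15 to 16.4 CPM to a knockout range of 10.2 to 12.6.

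Ikbkg, the regulatory subunit of the IkB kinase complex (NEMO), fell from 67.5 ± 4.86 to 49.8 ± 4.13 CPM (-0.44 ± 0.09, adjusted p 0.0432). It overlaps G6pdx on the other strand, which was at 2.89 and 3.64 CPM. Tsc22d4, a leucine zipper protein, rose from 8.79 ± 0.378 to 17.8 ± 3.18 CPM (1.02 ± 0.22, adjusted p 0.0473). Cmtm8, a MARVEL domain protein, rose by 0.48 ± 0.10 (adjusted p 0.0463), and Mta1, of the NuRD chromatin remodelling complex, by 0.41 ± 0.09 (adjusted p 0.0432). In all, 12 of the 35 named called genes overlap another gene with at least 10 counts over the 10 libraries, and without a stated counting strand reads of such partners cannot be told apart. The other 3 called genes are predicted genes or unnamed transcripts, 1 lower and 2 higher.

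**Figure D4:**
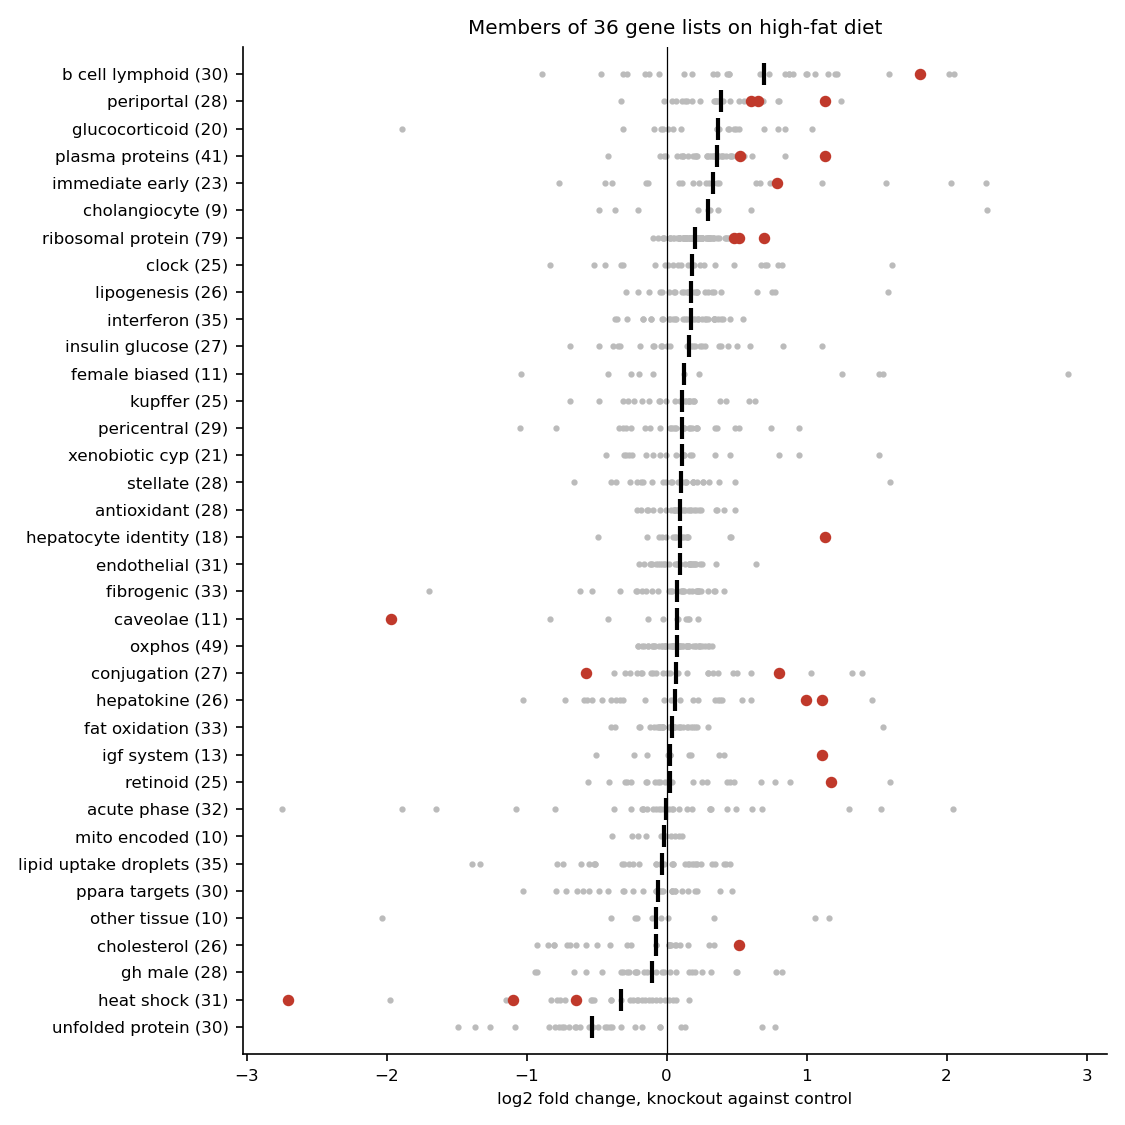
Log2 fold changes of the tested members of 36 gene lists (the number tested is in brackets), with called members in red, others in grey and the list median as a black bar. The medians run from -0.53 for the unfolded protein response to 0.70 for B cell, lymphoid and neutrophil genes, and the Plvap point stands alone at -1.97 in the caveolae list.

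The lists of endothelial, fibrogenic and Kupffer cell genes held no called gene. Of 31 endothelial genes 0 were called (median 0.09), and Lyve1, a hyaluronan receptor of sinusoidal endothelium, was at 10.6 ± 0.806 CPM in controls and 16.5 ± 5.97 in knockouts (adjusted p 0.171). Of 33 fibrogenic genes 0 were called (median 0.08). The matricellular gene Ccn1, a target of YAP, was at 12.3 ± 5.13 and 3.67 ± 2.02 CPM (-1.70 ± 0.42, adjusted p 0.0831), with control A at 5.16 inside the knockout range. Of 25 Kupffer cell genes 0 were called, and their 4 defining markers summed to 410.6 to 639 CPM in controls and to between 291 (A) and 826 (C) in knockouts. Stellate markers summed to 81.4 to 97.1 CPM in controls and 89.2 to 105.5 in knockouts, and sinusoidal markers to 147 to 171 and 146 to 198. The kidney markers summed to at most 0.212 CPM in any liver, and the 4 pancreas markers to 32.4 to 47.6 CPM in controls and 27.8 to 48.0 in knockouts. Of these Pnlip and Cpa1 were at 0 in all 10 livers and Prss2 averaged under 0.05 CPM, so that nearly all of the sum was Cela1.

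The lists of growth hormone dependent male genes (28 tested), glucocorticoid targets (20), clock genes (25), interferon genes (35), antioxidant genes (28), drug-metabolising cytochromes (21), glucose and insulin genes (27), respiratory chain subunits (49) and mitochondrially encoded genes (10) also had 0 called. So did the female-biased genes (11), cholangiocyte genes (9) and genes of other tissues (10). The smallest adjusted p within these 12 lists belonged to Gys2, the liver glycogen synthase, and to the male-biased genes Cyp4a12b and Mup21. Gys2 was at 191, 160.0, 122, 95 and 144 CPM in controls A to E and 220.2, 231, 246, 358 and 212 CPM in knockouts A to E (0.83 ± 0.19, adjusted p 0.0662). Cyp4a12b was at 40.5 ± 7.81 and 21.2 ± 7.26 CPM (adjusted p 0.0734), Mup21 at 459 ± 103 and 239.6 ± 96.8 (adjusted p 0.0775). The female-biased magnesium transporter gene Nipal1 ranged from 0.17 to 1.19 CPM in controls and from 0.564 to 10.7 in knockouts (adjusted p 0.27).

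The same genes were then read in the other 3 feeding states of the line, which have control livers of their own. In chow fasted livers 289 of 12840 genes were called (2.25%), in western diet livers 2 of 13533 (0.0148%) and in refed livers 3 of 13228 (0.0227%). Of the 36 high-fat called genes tested in chow fasted livers 8 were called there too, all in the same direction. They were Plvap, Alb, Rdh16f2, Hgfac, Plbd2, Tsc22d4, Uroc1 and Fam81a. On western diet Plvap and Rdh16f2 were called, and after refeeding Plvap. The sign was shared by 33 of 36 genes on chow (91.7%, against 59.4% of all genes), 29 of 38 on western diet (76.3%, against 49.8%) and 31 of 36 after refeeding (86.1%, against 47.7%). The called genes, with Plvap among them, were picked for effects that are large beside their spread, and some are related to each other. The shares over all genes are thus no like standard, and the sharing of signs was not tested.

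The log2 fold change of Rdh16f2 was 1.16 ± 0.19 on western diet, 1.23 ± 0.14 on fasted chow and 1.01 ± 0.15 after refeeding (adjusted p 0.0413, 5.82e-04 and 0.0656), beside 1.17 on high-fat diet. Alb was at 0.67 ± 0.18, 0.96 ± 0.12 and 0.75 ± 0.13 in the same order (adjusted p 0.308, 5.82e-04 and 0.167). Igfbp2 was at 0.21 ± 0.19, 0.10 ± 0.15 and 0.36 ± 0.24 (adjusted p 0.759, 0.785 and 0.731), and the difference of its effect did not pass against western diet (adjusted p 0.266) or fasted chow (adjusted p 0.231). Lpcat3 was at -0.05 ± 0.08 on western diet and -0.11 ± 0.10 on fasted chow, and Scap at 0.01 ± 0.10 and 0.09 ± 0.09. Bag3 was at -0.45 ± 0.24 on western diet, 0.02 ± 0.27 on fasted chow and -0.45 ± 0.24 after refeeding. In the same order Hspa1a was at -1.09 ± 0.56, -0.64 ± 1.03 and -1.57 ± 0.58, and Dnajb4 at 0.02 ± 0.15, 0.07 ± 0.15 and -0.10 ± 0.16. None of these chaperone values passed. Cidec, a droplet fusion protein chosen after its values were seen, was at -0.56 ± 0.33 on high-fat diet (adjusted p 0.473), and at -1.95 ± 0.35, -1.42 ± 0.20 and -2.99 ± 0.68 on western diet, fasted chow and refed chow (adjusted p 0.114, 0.00223 and 0.386). The fasting targets of PPARA had medians of -0.06 on high-fat diet, -0.33 on western diet, -0.48 on fasted chow and -0.36 after refeeding. For the 41 plasma protein genes the medians were 0.36, 0.18, 0.36 and 0.29 in the same order. On fasted chow 8 of the 41 were called higher, where 2.25% of all genes were called in either direction.

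Whether the knockout effect itself differed between states was tested directly. Between high-fat and western diet 0 of 13533 genes passed (1546 with a p under 0.05 before adjustment, smallest adjusted p 0.132 by edgeR, while DESeq2 called 56). Between high-fat diet and fasted chow 0 of 14234 passed (1164 with a p under 0.05, smallest adjusted p 0.12, and 12 by DESeq2). The 5 genes with the smallest p against western diet were Olfr1034 (difference -1.42 ± 0.27), Csrnp1 (1.39 ± 0.26), Psmd9 (0.70 ± 0.14), Dock4 (-0.93 ± 0.18) and Sulf2 (1.51 ± 0.30). Dock4, an exchange factor of Rac, was at 28.1 ± 3.43 and 19.3 ± 2.01 CPM on high-fat diet (adjusted p 0.0619), and at 0.39 ± 0.13 on the log2 scale on western diet. Csrnp1, a nuclear factor of the immediate early list, was at 0.64 ± 0.18 on high-fat diet and -0.75 ± 0.19 on western diet. The heparan sulfate editing enzyme Sulf2 was at 0.70 ± 0.21 and -0.81 ± 0.21, and the proteasome assembly factor Psmd9 at 0.25 ± 0.09 and -0.46 ± 0.10. Against fasted chow the smallest p belonged to Rufy4, Gm19572, Bcl9, Dock4 and Enpep. Bcl9, a WNT coactivator, was at 0.65 ± 0.20 on high-fat diet and -0.85 ± 0.26 on chow. The aminopeptidase Enpep was at -0.51 ± 0.12 and 0.24 ± 0.11.

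**Figure D5:**
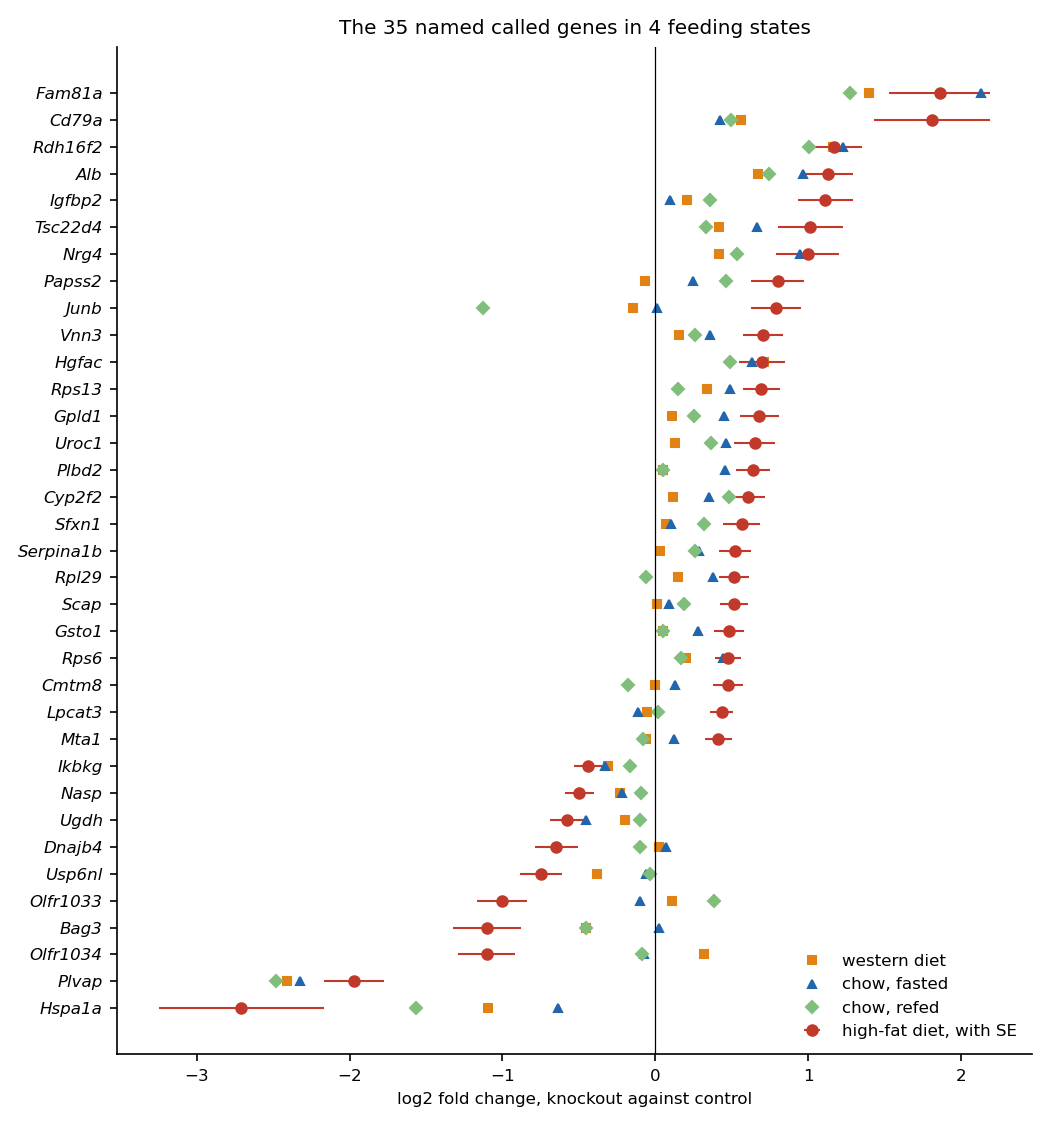
Log2 fold changes, knockout against control, of the 35 named called genes (rows) on high-fat diet (red circles with SE), western diet (orange squares), fasted chow (blue triangles) and refed chow (green diamonds). Rdh16f2 and Plvap have symbols close together in all 4 states, while Igfbp2, Lpcat3, Olfr1033 and Olfr1034 lie farther from 0 on high-fat diet than in the other 3.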

How the data were processed

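Whole-liver total RNA was turned into sequencing libraries (NEBNext Ultra), per the labels' protocols. The authors deposited raw read counts per Ensembl gene, with exon coordinates and a column of another unit, the gene length in bases, per the file headers. The build is GRCm39, per the submitters' processing notes. STAR 2.7.8a, featureCounts 2.0, FastQC 0.11.9 and MultiQC 1.10.1 stand in the submitters' processing notes. The annotation release and counting strand are not given in the sources used here. Symbols were joined by identifier (52083 of 55416 genes). Genes without a symbol held 0.557% of the high-fat counts.

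The high-fat effect was tested with edgeR 4.0.16 (quasi-likelihood F-test, TMM, filterByExpr with minimum count 10 and minimum total 15) in R 4.3.3, on all 19 libraries of the diet table in 4 groups. Differences from chow used 38 libraries in 8 groups, where table and feeding state cannot be told apart. BH-adjusted p under 0.05 was the threshold, and an SE is the absolute log2 fold change over the root of F. P-values weigh a group difference against the spread between livers, which for the high-fat effect was estimated over the 19 libraries of the diet table. No pair of high-fat libraries within a group was identical, and other pairs were not checked. Plvap also had an exact permutation test on log2(CPM + 0.5).

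Members and lists were chosen with earlier results of these data known. Named were called genes of at least 1 CPM in the higher group with an established symbol, called members of 36 lists or the 3 with the smallest p (few are printed), the 5 genes with the smallest p in each difference, and others marked as named after their values were seen. Alternatives were DESeq2 1.42.0, its size factors, other filters, limma-voom (limma 3.58.1), a replicate block, the 10 high-fat libraries alone, a length trend and each library left out. The result of 1 gene is not reported here.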

Additional observations from a re-analysis of the deposited data

Results flagged for a closer look

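Among 70 sets of 5 livers (35 called genes in 2 groups), Dixon's ratio set 1 liver apart in 4, and chance alone gives about 1 in 20. Alb was at 71500.2 CPM in knockout E, where the next knockout stood at 53593 CPM, and the gap was 0.804 of the range of the group. Hgfac was at 295 CPM in the same liver against 212 in the next, with a ratio of 0.738. Cyp2f2 was at 659 CPM in control E against 541 in the next control, with a ratio of 0.807. Rps6 was at 70.7 CPM in control D, the library with fewest counts, against 84.4 in the next, with a ratio of 0.716. Alb and Plvap remained called without each of these livers.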

How the results depend on the processing

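The 38 called genes became 244 with DESeq2, 99 without a filter on low counts and 110 with limma-voom, and 34 to 46 with DESeq2's size factors, a filter at 1 CPM, the 10 high-fat libraries alone or a length trend removed (chosen after the data were seen). Of the 38, 37 were among those called by DESeq2, 37 among those by limma-voom and 31 among those without a filter. In the 10 high-fat libraries alone 22 of the 38 were called. With DESeq2's size factors 38 were, with the filter at 1 CPM 33 and with the length trend removed 35. With 1 library left out the count ran from 4 to 61. Livers with the same replicate letter showed no clear pairing, with correlations of their deviations from -0.175 to 0.163. Of 5 knockouts 0 correlated best with their own letter, which cannot exclude that letters mark a shared litter or cage. With the letter as a replicate block within diet 3 genes were called (2 of the 38), and 35 with the block in the 10 high-fat libraries alone, a fit also chosen after the data were seen (10 of the 38). Plvap passed throughout. The difference from western diet had 56 calls with DESeq2, 10 without a filter and 0 to 1 with a library left out. The difference from fasted chow had 12 with DESeq2 and 0 to 1 with a library left out. The causes were not tested. Signs changed for 3 genes, none of them called. Hspa8 was at 0.01 with limma-voom and ran from -0.0994 to 0.0452 with a library left out, Lrat from -0.005 to 0.101 and mt-Nd2 from -0.2598 to 0.00. Over all pairs of a named gene and another setting, a call was lost in 269 and gained in 80, the sign turned in 6, and in 2356 the gene kept its sign and its side of the threshold, called or not. Control D, with 6656342 counts, limits genes under 1 CPM such as Cd79a.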
